A study of Homo sapiens with 18 samples.

Results

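The genes described here encode the clotting and complement proteins that liver cells secrete into plasma. They were taken as a list of 47 symbols, set by protein function, and all array probes whose RefSeq accession or symbol led to one of them were used. The list holds 26 clotting and fibrinolysis genes, 17 complement genes and the 4 heavy chains of inter-alpha-trypsin inhibitor. Probes were found for 46 of the 47 genes, out of 19740 genes named on the array. No probe was matched by accession to CPB2, which encodes an inhibitor of fibrinolysis, and it is not analysed here.

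Hepatocytes make most circulating clotting factors and complement components. In the clotting cascade, proteases circulate as inactive forms and cleave each other in turn until thrombin cuts fibrinogen into fibrin, while antithrombin, protein C and protein S hold the cascade back and plasmin dissolves the clot. In complement, C1 or the mannose-binding lectin proteases lead to cleavage of C3, and C5 to C9 then assemble into a pore in the target membrane. Genes of both systems are widely used as a readout of the hepatocyte state, and many of them depend on the liver factors HNF1, HNF4 and C/EBP.

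EpCAM+ cells, the fraction in which tumor-initiating HCC cells are enriched, were sorted from the human hepatocellular carcinoma lines Huh1 and Huh7 and measured on 18 one-color oligonucleotide arrays. Each line gave 3 control arrays, 3 arrays after disulfiram (DSF, 0.1 µM), an inhibitor of aldehyde dehydrogenase, and 3 arrays after 5-fluorouracil (5-FU, 1 µM), an antimetabolite. Both drugs were given for 48 hours. The study's methods list copper chloride with DSF, and what was added to control cells is not given in the sources used here, so copper and DSF cannot be told apart. Each line is a single cell line in culture, so no spread between donors is included. The labels describe the sort on EpCAM after the treatment, so a change per cell and a change in which cells passed the gate cannot be told apart.

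Levels are given as the log2 of the deposited spot intensity minus the 75th percentile of the same array, so that 0 is the 75th percentile. They are compared between arrays for the same probe, never between probes. A gene is represented by its brightest tested probe. A change was called when limma, fitted on all 29760 tested probes and all 18 arrays, gave an adjusted p under 0.05, and errors printed after ± are standard errors of that fit. The markers ALB, AFP, APOA1, APOB, TTR, KRT8, KRT18 and EPCAM were well above background on all 18 arrays (EPCAM was the gene of the sort). Of the 46 genes, 37 were above background on all 18 arrays.

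Several arrays of a group were almost the same, and this bears on every p given here. Over 4233 bright probes with several spots, the robust SD between spots of 1 probe on 1 array was 0.0678 to 0.0753 on the log2 scale. The SD between arrays of a group was about as small or smaller, at 0.0464 to 0.0741, for 7 pairs, which were Huh1 control 2 and 3, Huh1 5-FU 2 and 3, Huh1 DSF 1 and 2, Huh7 DSF 2 and 3, and every pair of the Huh7 controls. The other 11 pairs differed by 0.0879 to 0.240. The study's methods speak of independent experiments, and no source used here says that RNA was shared, so the p-values of 18 arrays measure a spread that may be partly technical. All comparisons were therefore also fitted with these arrays averaged and counted as 1 sample, which left 12 samples (2 in each Huh1 group, 1 Huh7 control, 2 Huh7 DSF and 3 Huh7 5-FU). In that fit the lone Huh7 control is assumed to vary like the other groups. Its total counts for the listed genes and many of their single calls are given beside those of the 18 arrays. Counts by role and the calls of further genes and cell markers rest on the 18 arrays alone.

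A pair of further features moved with the groups. Relative to the added spike-in RNA, the 75th percentile stood 0.84 (Huh1) and 0.98 (Huh7) log2 units higher after 5-FU than in controls, against 0.14 and -0.12 after DSF. Levels set on the spike-in RNA would thus raise every 5-FU value by that amount, and a fall after 5-FU of less than that size turns into a rise. The arrays Huh7 DSF 2 and 3 shared a slide with no other array and were scanned on a different day from the rest. With Huh7 DSF 1 alone, which lay on the slide of the Huh7 controls, 20 genes were lower after DSF in Huh7 with a median change of -0.67, where the lone DSF array was assumed to vary like the arrays of the other groups. With the slide as a fixed block 24 were lower in Huh1 and 20 in Huh7. With Huh1 DSF 3 left out, so that all Huh1 arrays lay on 1 slide, 25 genes were lower in Huh1.

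**Figure D1:**
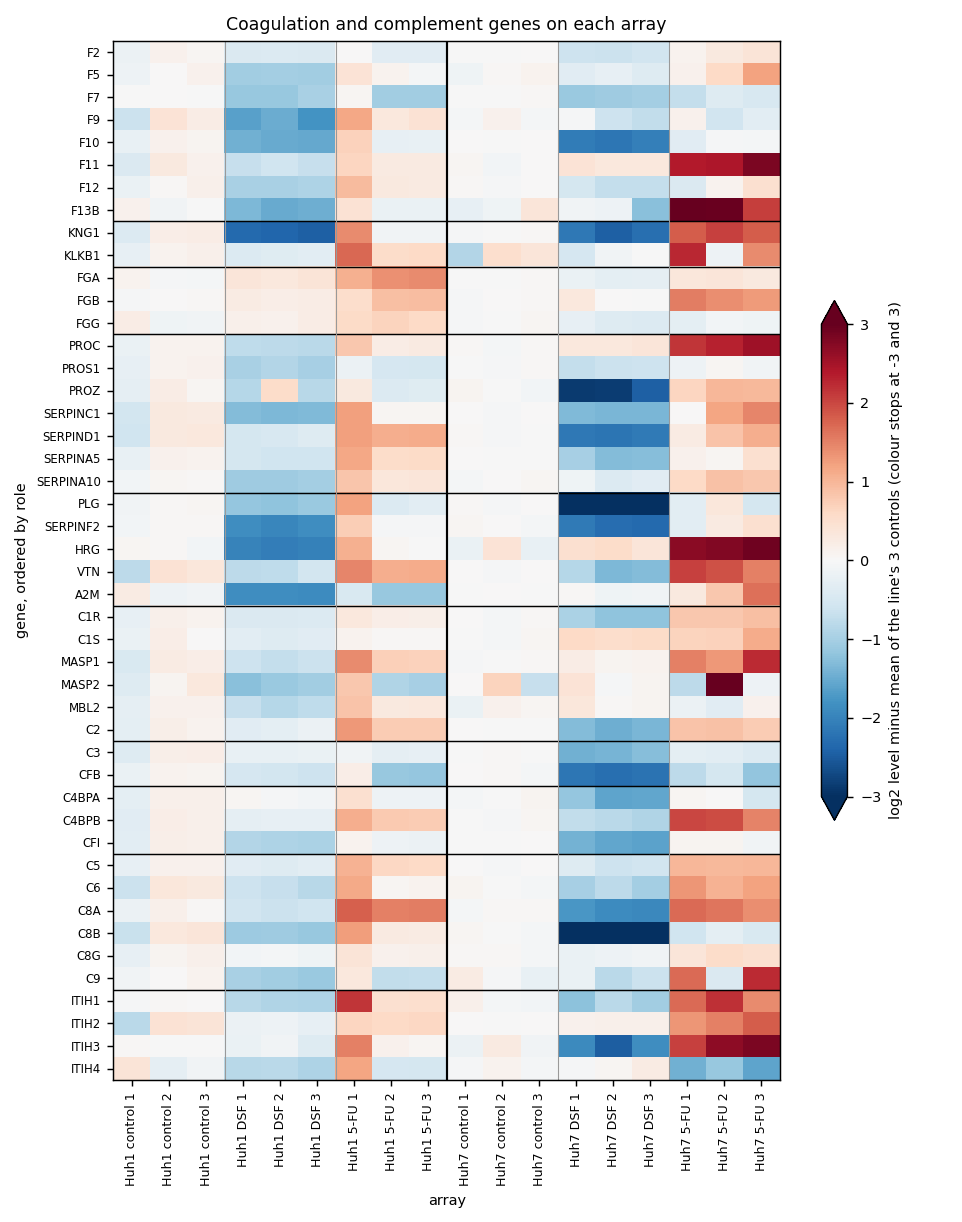
Level of 46 coagulation and complement genes (rows, ordered by role, with black lines between roles) on each of the 18 arrays (columns), as the log2 difference from the mean of the 3 control arrays of the same line. Blue fields, below the controls, prevail in the DSF columns of both lines and red fields, above the controls, in the 5-FU columns of Huh7, and Huh1 control 1 and Huh1 5-FU 1 differ from the other 2 arrays of their groups in many rows.

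Most of these genes were lower after DSF and many were higher after 5-FU. After DSF, 29 of 46 genes fell and 1 rose in Huh1, where 20.4% of all tested probes were called lower and 24% higher. In Huh7 29 genes fell and 1 rose after DSF, beside 19.4% of all probes called lower and 27.4% higher. The median change of the 46 genes was -0.71 in Huh1 and -0.66 in Huh7, beside 0.0 and 0.08 over all probes. After 5-FU, 16 genes rose and 4 fell in Huh1 (22.3% of all probes called higher, 26% lower), and 27 rose and 4 fell in Huh7 (27.4% higher, 29.8% lower). Median changes after 5-FU were 0.41 and 0.83, beside -0.03 and -0.05 over all probes. 

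The Huh1 count of falls, here and with near-identical arrays averaged, includes F9, which was near background in both groups. Both a fall after DSF and a rise after 5-FU were called for 9 genes in Huh1 (2.24% of all probes) and 16 in Huh7 (3.57%).

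With near-identical arrays averaged, fewer calls were made and none turned. After DSF, 14 genes were lower in Huh1 and 16 in Huh7, none higher, beside 10.1% and 5.33% of all probes called lower and 14.5% and 7.73% called higher. After 5-FU, 12 genes were higher in Huh1 and 18 in Huh7, none lower, beside 12.5% and 16.7% of all probes called higher and 14.1% and 17.8% called lower. Falls in both lines after DSF were called for 19 genes on 18 arrays (7.65% of all probes) and for 5 of them after averaging (KNG1, SERPINF2, F10, CFI and C8A). Rises in both lines after 5-FU were called for 13 genes on 18 arrays (13.3% of all probes) and for 8 after averaging (C8A, VTN, MASP1, C4BPB, C2, FGB, C5 and SERPINA10).

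**Figure D2:**
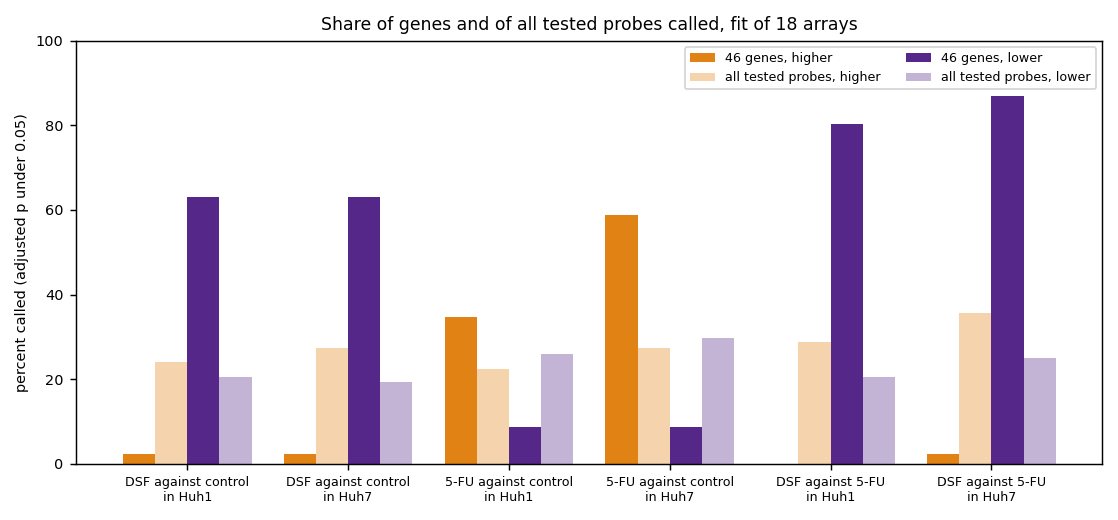
Percent of the 46 genes (solid bars) and of all 29760 tested probes (pale bars) called higher (orange) or lower (purple) in each of 6 comparisons, from the fit of 18 arrays. After DSF 63.0% of the genes were called lower in each line, against 20.4% (Huh1) and 19.4% (Huh7) of all probes.

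Of the 8 clotting factors, 7 fell after DSF in Huh1 beside F9, called lower there near background, and 4 fell in Huh7. In Huh7 F9 and F13B were not above background in controls or after DSF, so a fall was not detectable. After 5-FU 1 of the 8 fell in Huh1, and 4 rose and 1 fell in Huh7. F10 encodes factor X, which cuts prothrombin. Its level in Huh1 was -0.13, 0.22 and 0.18 in controls and -1.34, -1.43 and -1.45 after DSF, and in Huh7 1.85, 1.85 and 1.85 in controls and -0.24, -0.32 and -0.21 after DSF. Every DSF array lay below every control array of its line. The fall was 2.82-fold in Huh1 (-1.50 ± 0.19, adjusted p = 1.98e-05) and 4.31-fold in Huh7 (-2.11 ± 0.19, adjusted p = 9.22e-07), and it was called after averaging too. F7, the protease that starts the cascade together with tissue factor, went from -0.31, -0.29 and -0.31 to -1.44, -1.43 and -1.28 in Huh1 and from 1.37, 1.38 and 1.42 to 0.28, 0.31 and 0.38 in Huh7. Control and DSF arrays of F7 did not overlap in either line, with changes of -1.08 ± 0.21, adjusted p = 7.68e-04 in Huh1 and -1.07 ± 0.21, adjusted p = 8.99e-04 in Huh7, and after averaging the Huh7 call was lost (adjusted p = 0.092). For F12, which starts contact activation, control levels of 2.56, 2.80 and 2.91 in Huh1 and 1.50, 1.43 and 1.48 in Huh7 stood against 1.77, 1.80 and 1.84 and 0.95, 0.76 and 0.77 after DSF. The falls of F12, -0.95 ± 0.20, adjusted p = 0.00141 in Huh1 and -0.64 ± 0.20, adjusted p = 0.0174 in Huh7, were lost in both lines after averaging (adjusted p = 0.0658 and 0.327). With Huh7 DSF 1 as the lone DSF array, its spread taken from the other groups, the Huh7 change of F12 was -0.52 and was not called (adjusted p = 0.246).

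Prothrombin, encoded by F2, fell by a smaller amount in both lines after DSF (-0.42 ± 0.10, adjusted p = 0.00364 in Huh1 and -0.61 ± 0.10, adjusted p = 2.28e-04 in Huh7), and both calls were lost after averaging. F5, the cofactor of factor X, fell in Huh1 (-1.04 ± 0.20, adjusted p = 6.34e-04) and had a change of -0.33 ± 0.20 in Huh7 that was not called. F13B, the carrier subunit of the fibrin-crosslinking factor XIII, fell in Huh1 (-1.45 ± 0.30, adjusted p = 0.00139). F9 was called lower in Huh1, but none of those 6 arrays measured it well above background and no fold is given.

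F11, F13B, F2 and F5 rose after 5-FU in Huh7, and the calls of F2 and F5 were lost after averaging. Factor XI, the product of F11, amplifies thrombin formation. Huh7 levels of F11 were -0.19, -0.33 and -0.23 in controls and 2.13, 2.18 and 2.58 after 5-FU, a 5.82-fold rise (2.54 ± 0.16, adjusted p = 1.24e-08). Huh1 levels were -0.24, 0.47 and 0.31 in controls and 0.83, 0.45 and 0.46 after 5-FU, overlapping groups with a change of 0.40 ± 0.16 that was not called. The other probe of F11, with a change of 0.46 in Huh1, was called higher. F13B was not well above background on the Huh7 controls, at -7.81, -7.69 and -7.22, and was above it after 5-FU, at -4.58, -4.61 and -5.50, so the rise was at least 2.13-fold (adjusted p = 3.53e-06). In Huh1 F13B lay at -1.65, -1.88 and -1.78 in controls and -1.32, -1.97 and -1.96 after 5-FU, and its change of 0.02 ± 0.30 was not called. F7 was called lower after 5-FU in both lines (-0.68 ± 0.21, adjusted p = 0.0157 in Huh1 and -0.52 ± 0.21, adjusted p = 0.0479 in Huh7), but Huh1 5-FU 1 lay at the control level, neither call held after averaging, and on the spike-in scale the values were 0.16 and 0.46.

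KNG1, which encodes the kininogen that carries prekallikrein and releases bradykinin, ranked first among the genes lowered in both lines by the smaller of its 2 changes. Its level was 2.34, 2.96 and 2.97 in Huh1 controls and 0.42, 0.37 and 0.30 after DSF, and 1.01, 1.02 and 1.07 in Huh7 controls and -1.11, -1.41 and -1.22 after DSF. The groups did not overlap in either line and differed by 5.25-fold in Huh1 (-2.39 ± 0.30, adjusted p = 2.11e-05) and 4.86-fold in Huh7 (-2.28 ± 0.30, adjusted p = 3.53e-05). After 5-FU the Huh7 level rose to 2.85, 3.08 and 2.85 (1.89 ± 0.30, adjusted p = 9.60e-05), whereas the Huh1 level of 4.17, 2.64 and 2.65 overlapped the controls (0.40 ± 0.30, not called). KLKB1, the prekallikrein gene, was close to background in Huh7 and was called in neither line after either drug.

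Of the 3 fibrinogen chains none fell after DSF in Huh1, where 1 rose, and 2 fell by small amounts in Huh7. FGA, FGB and FGG encode the alpha, beta and gamma chains of the protein that becomes fibrin, and they lie next to each other on chromosome 4. FGA was at 1.69, 1.54 and 1.52 in Huh1 controls and 1.96, 1.90 and 1.98 after DSF, a rise of 0.36 ± 0.08, adjusted p = 0.00224. In Huh7 it went from 2.64, 2.65 and 2.68 to 2.46, 2.36 and 2.39, a fall of -0.25 ± 0.08, adjusted p = 0.0188. Both changes were small, in opposite directions, and neither was called after averaging (adjusted p = 0.0874 and 0.356). FGB was at 3.24, 3.31 and 3.31 in Huh1 controls and 3.53, 3.48 and 3.51 after DSF, and at 2.87, 2.90 and 2.93 and 3.22, 2.92 and 2.88 in Huh7. Its changes of 0.22 ± 0.11 and 0.11 ± 0.11 were not called. FGG levels were 4.46, 4.10 and 4.14 in Huh1 controls and 4.38, 4.37 and 4.45 after DSF (0.16 ± 0.09, not called), and 5.34, 5.36 and 5.42 and 5.13, 4.99 and 4.97 in Huh7 (-0.35 ± 0.09, adjusted p = 0.00533, not called after averaging). 

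After 5-FU all 3 chains rose in Huh1, also after averaging. FGA reached 2.65, 2.96 and 3.0 there, a 2.43-fold rise (1.28 ± 0.08, adjusted p = 5.08e-08), FGB 3.80, 4.19 and 4.22 (0.78 ± 0.11, adjusted p = 4.94e-05) and FGG 4.80, 4.89 and 4.84 (0.61 ± 0.09, adjusted p = 5.99e-05). In Huh7 the chains parted. FGB reached 4.45, 4.30 and 4.17, 2.65-fold above the controls (1.40 ± 0.11, adjusted p = 9.15e-08). FGA reached 3.0, 3.02 and 2.96 (0.33 ± 0.08, adjusted p = 0.00257, lost after averaging with adjusted p = 0.114), and FGG was at 5.09, 5.30 and 5.24 (-0.16 ± 0.09, not called). The differences between the lines in the 5-FU response were called for all 3 chains on 18 arrays (-0.95 ± 0.11 for FGA, 0.62 ± 0.16 for FGB and -0.77 ± 0.12 for FGG, Huh7 minus Huh1), and for FGA alone after averaging. The 3 probes of FGA had DSF changes of 0.18 to 0.36 in Huh1 and -0.33 to -0.11 in Huh7, the same in sign, but in neither line did all 3 give the same call.

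**Figure D3:**
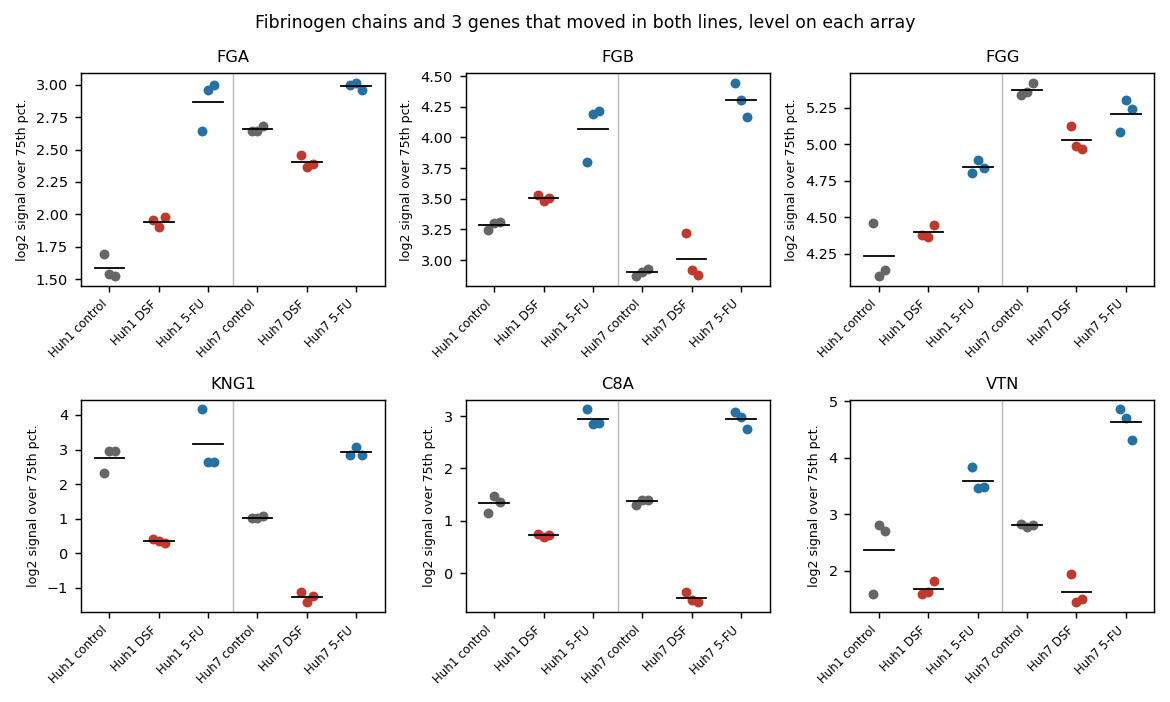
Level of FGA, FGB, FGG, KNG1, C8A and VTN on each array (points, log2 signal over the array's 75th percentile) in the 6 groups, with the group mean as a black line and the lines Huh1 and Huh7 split by a grey line. Mean changes of the fibrinogen chains after DSF lie between -0.35 and 0.36, while KNG1 and C8A lie below the controls after DSF in both lines, and C8A and VTN lie above the controls after 5-FU in both lines.

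KNG1 had the lowest and FGA the highest change of the 46 genes after DSF in Huh1, and the 250 bases before their start sites and those of FGB and FGG are shown, from RefSeq in the build GRCh38.p14 and read 5′ to 3′ along the gene. Capitals mark matches to GTTAAT, a core of the HNF1 site, and to TTGCNNAA, a C/EBP site, and to TATAAA, each searched on both strands.
FGA (chr4:154590743-154590992, minus strand): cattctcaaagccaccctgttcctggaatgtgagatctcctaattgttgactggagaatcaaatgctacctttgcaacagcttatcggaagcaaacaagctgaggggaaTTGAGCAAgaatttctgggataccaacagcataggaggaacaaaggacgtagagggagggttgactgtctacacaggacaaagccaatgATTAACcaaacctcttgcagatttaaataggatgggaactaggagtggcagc
FGB (chr4:154562730-154562979, plus strand): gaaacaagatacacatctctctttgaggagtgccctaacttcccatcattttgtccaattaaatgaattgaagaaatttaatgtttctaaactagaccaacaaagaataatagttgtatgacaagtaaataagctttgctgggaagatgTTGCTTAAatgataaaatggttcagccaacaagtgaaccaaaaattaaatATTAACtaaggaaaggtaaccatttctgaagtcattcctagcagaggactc
FGG (chr4:154612657-154612906, minus strand): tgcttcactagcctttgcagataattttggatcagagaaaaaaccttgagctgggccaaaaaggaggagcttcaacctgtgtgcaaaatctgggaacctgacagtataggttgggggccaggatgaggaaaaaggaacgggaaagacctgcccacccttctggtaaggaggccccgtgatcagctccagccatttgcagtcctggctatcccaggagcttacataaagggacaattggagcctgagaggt
KNG1 (chr3:186717109-186717358, plus strand): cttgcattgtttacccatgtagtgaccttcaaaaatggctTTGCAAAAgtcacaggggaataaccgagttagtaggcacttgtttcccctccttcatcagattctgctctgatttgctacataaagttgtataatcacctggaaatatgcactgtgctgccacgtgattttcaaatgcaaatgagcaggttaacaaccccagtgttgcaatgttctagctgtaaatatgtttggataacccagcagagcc
FGA and FGB each held 1 HNF1 match, starting 52 and 51 bases before the start site, and 1 C/EBP match, starting 141 and 101 bases before it. KNG1 held 1 C/EBP match, starting 210 bases before the start site, and these letters were not found in the FGG window. Of the 47 genes, 40 had a window in the table. GTTAAT was present in 8 of 40 windows (20%, against 6.23% of 35116 promoters), TTGCNNAA in 9 (22.5% against 9.05%), the STAT palindrome TTCNNNGAA in 12 (30% against 6.57%), TGCNCNC, the core of the metal response element, in 15 (37.5% against 49.1%) and TATAAA in 3 (7.5% against 10.7%). Among the 17 windows of genes lowered by DSF in both lines, 3 held GTTAAT, 4 TTGCNNAA and 4 TTCNNNGAA. Among the 12 windows of genes raised by 5-FU in both lines these numbers were 3, 3 and 2. A match of letters is a description of the window and no measurement of binding.

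Of the 7 genes listed as natural anticoagulants, among them SERPINA5, an inhibitor of protein C, 5 fell after DSF in Huh1 and 6 in Huh7. After 5-FU 4 rose and 1, PROS1, fell in Huh1, and 5 rose in Huh7. SERPINC1 encodes antithrombin, the main inhibitor of thrombin and factor X. Its level was 3.60, 4.45 and 4.42 in Huh1 controls and 2.85, 2.80 and 2.83 after DSF, and 2.84, 2.80 and 2.84 and 1.51, 1.45 and 1.45 in Huh7. The DSF arrays were all lower, by 2.52-fold in Huh1 (-1.33 ± 0.35, adjusted p = 0.00683) and 2.56-fold in Huh7 (-1.36 ± 0.35, adjusted p = 0.00618). Both calls were lost after averaging (adjusted p = 0.139 and 0.213). After 5-FU the arrays spread widely, at 5.39, 4.22 and 4.23 in Huh1 (0.46 ± 0.35, not called) and 2.84, 4.0 and 4.29 in Huh7 (0.88 ± 0.35, adjusted p = 0.0454, lost after averaging).

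PROS1, the gene of protein S, a cofactor of protein C, was at 2.83, 3.18 and 3.19 and fell to 2.10, 2.18 and 2.06 in Huh1, and went from 2.32, 2.29 and 2.35 to 1.59, 1.67 and 1.69 in Huh7. The groups did not overlap (-0.95 ± 0.10, adjusted p = 5.56e-06 in Huh1 and -0.67 ± 0.10, adjusted p = 1.41e-04 in Huh7), and the Huh7 call was lost after averaging (adjusted p = 0.0541). After 5-FU PROS1 was called lower in Huh1 (-0.40), a call that was lost after averaging. On the spike-in scale that value was 0.43 and was called higher. Heparin cofactor II, a thrombin inhibitor encoded by SERPIND1, lay at 2.01, 1.95 and 1.97 in Huh7 controls and -0.17, -0.22 and -0.15 after DSF (4.46-fold lower, -2.16 ± 0.22, adjusted p = 2.64e-06), but in Huh1 the 1.51, 1.54 and 1.66 after DSF overlapped the 1.43, 2.33 and 2.34 of the controls (-0.46 ± 0.22, not called). After 5-FU SERPIND1 rose to 3.26, 3.14 and 3.15 in Huh1 (1.15 ± 0.22, adjusted p = 5.50e-04) and 2.23, 2.82 and 3.07 in Huh7 (0.73 ± 0.22, adjusted p = 0.01), of which the Huh7 call was lost after averaging.

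Protein C, the product of PROC, cleaves the cofactors V and VIII. In Huh7 PROC rose from -0.38, -0.48 and -0.39 to 1.73, 1.88 and 2.12 after 5-FU, a 5.01-fold rise (2.33 ± 0.13, adjusted p = 4.85e-09). In Huh1 it went from 0.96, 1.25 and 1.25 to 1.95, 1.39 and 1.43 (0.44 ± 0.13, adjusted p = 0.0155, lost after averaging) and fell to 0.40, 0.37 and 0.33 after DSF (-0.79 ± 0.13, adjusted p = 2.75e-04). After DSF in Huh7 its brightest probe changed by 0.33 and was not called, while its other probe, at 0.76, was called higher. SERPINA10, an inhibitor of factor X that works with protein Z, was at 0.19, 0.34 and 0.30 in Huh1 controls and 1.11, 0.62 and 0.64 after 5-FU, and at -1.90, -1.82 and -1.78 and -1.23, -0.95 and -1.03 in Huh7. These rises held after averaging in both lines (0.51 ± 0.12, adjusted p = 0.00257 in Huh1 and 0.76 ± 0.12, adjusted p = 7.02e-05 in Huh7). SERPINA10 was also called lower after DSF in both lines. Its mean level went from 0.28 to -0.78 in Huh1 and from -1.83 to -2.13 in Huh7, where the call was lost after averaging. PROZ, the gene of protein Z itself, was above background in Huh7 controls, at -3.58, -3.68 and -3.76, and on 1 of 3 Huh7 DSF arrays, at -6.54, -6.52 and -6.13 (-2.73 ± 0.31, adjusted p = 7.76e-06). In Huh1 it was above background neither in controls nor after DSF, so a fall was not detectable there. SERPINA5, the protein C inhibitor, fell in both lines after DSF (-0.57 ± 0.16, adjusted p = 0.00818 in Huh1, lost after averaging, and -1.19 ± 0.16, adjusted p = 3.20e-05 in Huh7).

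Of the genes of fibrinolysis and its inhibitors, all 5 fell after DSF in Huh1 and 3 of 5 in Huh7, and after 5-FU 1 rose and 1 fell in Huh1 and 3 rose in Huh7. SERPINF2 encodes antiplasmin, the fast inhibitor of plasmin. It was at 0.81, 0.92 and 0.93 in Huh1 controls and -0.98, -1.08 and -0.98 after DSF, and at -0.87, -0.92 and -0.99 and -3.05, -3.22 and -3.27 in Huh7. The falls, 3.73-fold in Huh1 (-1.90 ± 0.19, adjusted p = 3.02e-06) and 4.76-fold in Huh7 (-2.25 ± 0.19, adjusted p = 6.58e-07), were called in both fits. PLG, the gene of plasminogen, went from 0.72, 0.86 and 0.88 to -0.34, -0.39 and -0.28 in Huh1 (-1.16 ± 0.33, adjusted p = 0.00986) and from -2.57, -2.64 and -2.58 to -6.08, -5.85 and -5.58 in Huh7 (-3.24 ± 0.33, adjusted p = 2.67e-06). The Huh7 fall, with 2 of 3 DSF arrays above background, was called after averaging, while the Huh1 call was lost (adjusted p = 0.117).

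HRG encodes histidine-rich glycoprotein, which binds plasminogen and heparin. DSF lowered it in Huh1, from 1.11, 1.09 and 0.98 to -0.94, -1.01 and -0.96 (4.09-fold, -2.03 ± 0.23, adjusted p = 6.38e-06), but not detectably in Huh7, where controls were at -3.78, -3.17 and -3.80 and DSF arrays at -3.11, -3.03 and -3.22 (0.46 ± 0.23). After 5-FU HRG reached -0.88, -0.80 and -0.67 in Huh7, 6.96-fold above the controls (2.80 ± 0.23, adjusted p = 1.23e-07), and 2.13, 1.12 and 1.04 in Huh1, where it overlapped the controls (0.37 ± 0.23, not called). Both differences between lines were called in both fits.

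A2M, the broad protease inhibitor alpha-2-macroglobulin, fell after DSF in Huh1 from -1.02, -1.40 and -1.36 to -3.13, -3.12 and -3.15 (3.65-fold, -1.87 ± 0.26, adjusted p = 4.38e-05) and was at 2.58, 2.61 and 2.59 in Huh7 controls and 2.62, 2.47 and 2.49 after DSF (-0.07 ± 0.26, not called). After 5-FU it moved in opposite directions, to -1.72, -2.40 and -2.40 in Huh1 (-0.91 ± 0.26, adjusted p = 0.00964) and 2.88, 3.40 and 4.24 in Huh7 (0.91 ± 0.26, adjusted p = 0.00745). Neither 5-FU call held after averaging, and on the spike-in scale the Huh1 value was -0.07. Vitronectin, encoded by VTN, stabilizes the plasminogen activator inhibitor and blocks the complement pore. Its level was 1.60, 2.82 and 2.71 in Huh1 controls and 3.83, 3.47 and 3.48 after 5-FU, and 2.82, 2.78 and 2.82 and 4.86, 4.71 and 4.31 in Huh7. The rises of 2.32-fold (1.22 ± 0.26, adjusted p = 0.00136) and 3.53-fold (1.82 ± 0.26, adjusted p = 2.96e-05) were called in both fits. After DSF VTN was called lower in both lines on 18 arrays (-0.69 ± 0.26 and -1.17 ± 0.26) and in neither after averaging, and Huh1 control 1 lay at the DSF level.

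Of the 6 complement genes that start the classical and lectin pathways, 4 fell in Huh1 after DSF, and in Huh7 2 fell and 1 rose, and 3 rose in Huh1 and 4 in Huh7 after 5-FU. MASP1, a protease of the lectin pathway, was at -3.20, -2.50 and -2.54 in Huh1 controls and -1.32, -2.03 and -2.06 after 5-FU (0.94 ± 0.24, adjusted p = 0.005), and at -0.90, -0.86 and -0.82 and 0.66, 0.43 and 1.39 in Huh7 (1.68 ± 0.24, adjusted p = 3.15e-05). C2, the protease part of the classical C3 convertase, was at 2.20, 2.67 and 2.58 in Huh1 controls and 3.78, 3.24 and 3.25 after 5-FU (0.94 ± 0.14, adjusted p = 6.59e-05), and at 1.99, 1.98 and 1.98 and 2.85, 2.86 and 2.74 in Huh7 (0.83 ± 0.14, adjusted p = 1.18e-04). Both rose without overlap in both lines and in both fits. After DSF C2 fell in Huh7 (2.59-fold, -1.37 ± 0.14, adjusted p = 2.46e-06) and not detectably in Huh1 (-0.27 ± 0.14).

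C1R and C1S encode the proteases of the C1 complex. C1R fell after DSF in Huh1 (-0.43 ± 0.10, adjusted p = 0.00272, lost after averaging) and in Huh7 (-1.12 ± 0.10, adjusted p = 7.44e-07). C1S was called lower in Huh1 (-0.35 ± 0.11, adjusted p = 0.0209) and higher in Huh7 (0.57 ± 0.11, adjusted p = 8.46e-04), the single rise among the 46 genes there, and neither C1S call held after averaging (adjusted p = 0.258 and 0.109). Both rose in Huh7 after 5-FU (0.84 ± 0.10 for C1R and 0.83 ± 0.11 for C1S). MBL2, the mannose-binding lectin, fell after DSF in Huh1 (-0.77 ± 0.17, adjusted p = 0.00177, lost after averaging), with a change of 0.16 ± 0.17 in Huh7. MASP2 was near background in Huh7 and was called in neither line after either drug.

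C3 and factor B, the centre of the alternative pathway, fell after DSF in Huh7 and were not called in Huh1. C3 went from 5.44, 5.47 and 5.42 to 4.0, 4.05 and 4.16 in Huh7 (2.59-fold, -1.37 ± 0.12, adjusted p = 5.59e-07), while in Huh1 4.69, 4.70 and 4.71 after DSF overlapped 4.53, 5.09 and 5.12 in controls (-0.22 ± 0.12, not called). CFB, the gene of factor B, went from 1.04, 1.07 and 0.98 to -1.14, -1.23 and -1.18 in Huh7 (4.64-fold, -2.21 ± 0.27, adjusted p = 1.64e-05) and from 0.51, 0.83 and 0.80 to 0.21, 0.16 and 0.09 in Huh1 (-0.56 ± 0.27, not called). The difference between the lines was called for both on 18 arrays (-1.16 ± 0.17 for C3 and -1.65 ± 0.38 for CFB) and for C3 after averaging. CFB and F7 were the genes called lower after 5-FU in both lines (16% of all probes). For CFB (-0.71 ± 0.27 and -0.83 ± 0.27) neither call held after averaging, and on the spike-in scale the values were 0.13 and 0.15. C3 was called lower after 5-FU in Huh7 (-0.34 ± 0.12), a call that was lost after averaging and a value that was 0.64 on the spike-in scale.

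All 3 complement regulators fell after DSF in Huh7 and 1 of 3 in Huh1, and after 5-FU 1 of 3 rose in each line. CFI encodes factor I, which inactivates C3b and C4b. Its level was 3.53, 4.02 and 4.01 in Huh1 controls and 2.96, 2.92 and 2.91 after DSF (-0.92 ± 0.12, adjusted p = 1.89e-05), and 4.85, 4.85 and 4.88 and 3.45, 3.29 and 3.25 in Huh7 (-1.53 ± 0.12, adjusted p = 1.88e-07). These falls were called in both lines and both fits, and both probes of CFI fell. C4BPA and C4BPB encode the alpha and beta chains of C4b-binding protein, which the beta chain links to protein S. C4BPA fell in Huh7 (-1.44 ± 0.20, adjusted p = 4.51e-05) and had a change of -0.02 ± 0.20 in Huh1. C4BPB rose after 5-FU in both lines and both fits, from 1.21, 1.76 and 1.72 to 2.66, 2.35 and 2.33 in Huh1 (0.88 ± 0.15, adjusted p = 2.35e-04) and from 1.16, 1.14 and 1.24 to 3.19, 3.13 and 2.68 in Huh7 (3.53-fold, 1.82 ± 0.15, adjusted p = 1.39e-07). C4BPB was called lower after DSF in Huh7 (-0.81 ± 0.15, adjusted p = 5.14e-04, lost after averaging). For the alpha chain no change after 5-FU was detected (0.05 ± 0.20 in Huh1 and -0.15 ± 0.20 in Huh7, not called).

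Among the 6 terminal components, 4 fell after DSF in each line, and after 5-FU 2 rose in Huh1 and 4 in Huh7. C8A, the alpha chain of C8, moved both ways in both lines and both fits. It was at 1.15, 1.48 and 1.37 in Huh1 controls, 0.75, 0.70 and 0.74 after DSF and 3.13, 2.85 and 2.87 after 5-FU. In Huh7 these levels were 1.31, 1.41 and 1.40, -0.36, -0.51 and -0.55 and 3.07, 2.98 and 2.76. None of the groups overlapped. The falls after DSF were 1.52-fold in Huh1 (-0.61 ± 0.10, adjusted p = 2.31e-04) and 3.59-fold in Huh7 (-1.85 ± 0.10, adjusted p = 9.99e-09), and the rises after 5-FU were 3.07-fold (1.62 ± 0.10, adjusted p = 5.30e-08) and 2.96-fold (1.56 ± 0.10, adjusted p = 1.47e-08).

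C8B, the beta chain, fell after DSF as well, from 1.24, 2.25 and 2.27 to 0.83, 0.85 and 0.78 in Huh1 (-1.10 ± 0.26, adjusted p = 0.00352, lost after averaging) and from -0.56, -0.64 and -0.67 to -3.85, -3.67 and -3.70 in Huh7 (8.67-fold, -3.12 ± 0.26, adjusted p = 5.35e-07). After 5-FU no change of C8B was detected (0.59 ± 0.26 in Huh1 and -0.45 ± 0.26 in Huh7, not called). C8G, the gamma chain, was not called after DSF by its brightest probe, though its other probe was in Huh7 (-0.39). After 5-FU its 2 probes differed in sign (-0.63 and 0.22 in Huh1, -0.18 and 0.47 in Huh7), so its call as higher in Huh7 is uncertain. C5, from which the pore starts, rose after 5-FU from 1.32, 1.69 and 1.70 to 2.61, 2.19 and 2.16 in Huh1 (0.75 ± 0.12, adjusted p = 1.10e-04) and from 2.02, 1.99 and 2.03 to 3.01, 2.99 and 3.01 in Huh7 (0.99 ± 0.12, adjusted p = 4.79e-06), in both fits. After DSF C5 was called lower in both lines on 18 arrays (-0.35 ± 0.12 and -0.53 ± 0.12) and in neither after averaging. C6 was likewise called lower after DSF on 18 arrays only (-0.72 ± 0.27 in Huh1 and -0.94 ± 0.27 in Huh7). C9, the pore subunit, was above background on all 9 Huh1 arrays and on none of the 9 Huh7 arrays, and was called in neither line against control.

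The heavy chains of inter-alpha-trypsin inhibitor did not move as 1 group, with 1 fall in Huh1 and 2 in Huh7 after DSF. After 5-FU there were 2 rises in Huh1, and 3 rises and 1 fall in Huh7. ITIH1 was at -0.41, -0.36 and -0.38 in Huh1 controls, -1.21, -1.28 and -1.30 after DSF and 1.76, 0.09 and 0.12 after 5-FU. In Huh7, close to background, it was at -5.01, -5.21 and -5.25, -6.38, -5.97 and -6.19 and -3.47, -2.96 and -3.74. Of its 4 calls (-0.88 ± 0.33, -1.03 ± 0.33, 1.04 ± 0.33 and 1.77 ± 0.33, in the order DSF in Huh1 and Huh7, 5-FU in Huh1 and Huh7), the rise after 5-FU in Huh7 held after averaging. The fall in Huh1 was also lost on leaving out any 1 Huh1 control or DSF array. ITIH2 was at 3.42, 4.66 and 4.61 in Huh1 controls and 4.88, 4.83 and 4.86 after 5-FU (0.63 ± 0.24, adjusted p = 0.0405, lost after averaging), and at 2.56, 2.55 and 2.57 and 3.90, 4.07 and 4.38 in Huh7 (2.94-fold, 1.55 ± 0.24, adjusted p = 5.57e-05, in both fits).

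ITIH3 fell in Huh7 from -5.27, -4.81 and -5.18 to -6.99, -7.57 and -6.95 after DSF, where no array was above background, so it was at least 2.59-fold lower (adjusted p = 1.24e-04). It rose there to -3.04, -2.41 and -2.25 after 5-FU (5.73-fold, 2.52 ± 0.32, adjusted p = 1.10e-05). Huh1 controls were at -3.08, -3.13 and -3.12, DSF arrays at -3.31, -3.21 and -3.49 and 5-FU arrays at -1.59, -2.99 and -3.06, and neither change was called. ITIH4, an acute phase protein, went the other way after 5-FU in Huh7, from -2.88, -2.74 and -2.89 to -4.28, -3.97 and -4.41 (-1.38 ± 0.33, adjusted p = 0.00261). In Huh1 controls were at 2.16, 1.52 and 1.66 and 5-FU arrays at 2.96, 1.28 and 1.26, with 1 array above and 2 below the controls (0.05 ± 0.33, not called). The ITIH4 call in Huh7 was lost after averaging (adjusted p = 0.0789) and on the spike-in scale (-0.41).

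**Figure D4:**
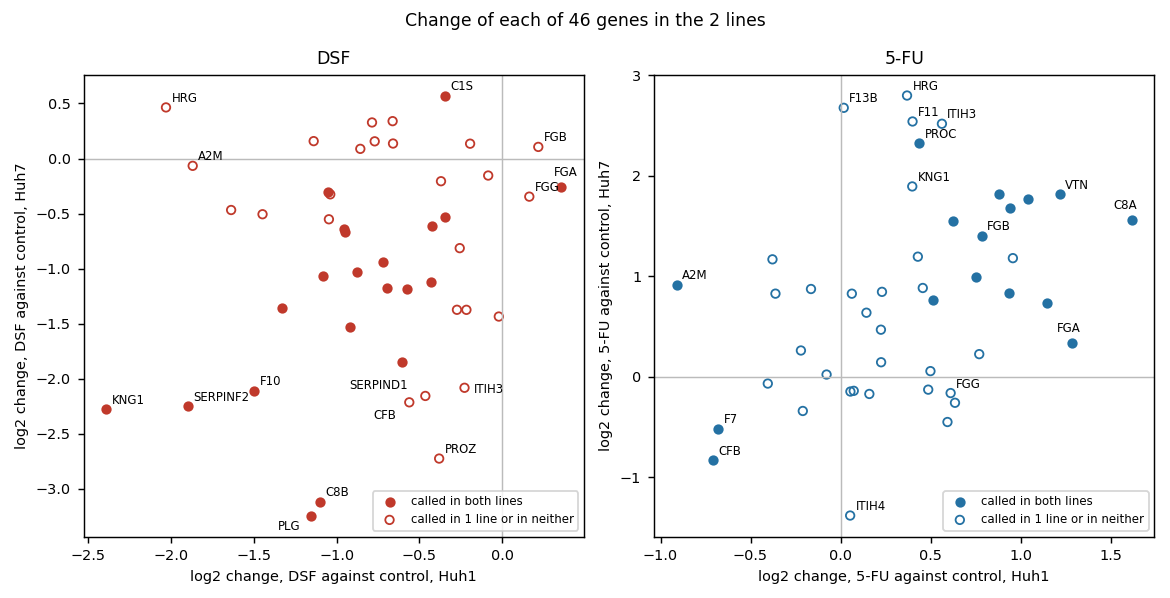
Log2 change of each of the 46 genes in Huh1 (horizontal axis) and Huh7 (vertical axis) after DSF (left, red) and after 5-FU (right, blue), with filled points for genes called in both lines on 18 arrays. After DSF 19 genes lie at the lower left as called falls in both lines, and FGA, FGB and FGG lie right of 0. After 5-FU 13 genes are called rises in both lines, and HRG, F13B, F11 and ITIH3, at 2.52 to 2.80 in Huh7, were not called in Huh1.

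Most genes were lower with DSF than with 5-FU. In Huh1 37 of 46 genes were lower with DSF than with 5-FU and none higher, where 20.6% of all probes were called lower and 28.7% higher. F9 is among the 37, and was above background there after 5-FU but not after DSF. In Huh7 40 were lower, among them C9, which was below background in both groups, and 1, ITIH4, was higher, where 25% of all probes were called lower and 35.6% higher. Median differences were -1.14 in Huh1 and -1.53 in Huh7. Both directions held after averaging, with 30 lower and none higher in Huh1 (12.4% of all probes lower, 17.4% higher) and 35 lower and 1 higher in Huh7 (19.4% lower, 27.2% higher). In both lines 32 genes were lower on 18 arrays (12.1% of all probes) and 26 after averaging. The largest differences were those of KNG1 in Huh1 (-2.79 ± 0.30) and, among genes above background on all arrays of both groups, KNG1 in Huh7 (-4.17 ± 0.30). C3, CFB and C4BPA, at -0.01 ± 0.12, 0.15 ± 0.27 and -0.07 ± 0.20, did not differ detectably between the drugs in Huh1.

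The change after DSF differed between the lines for 24 of the 46 genes, 8 with the higher value in Huh7 (21.2% of all probes) and 16 with the lower (19.3%). Of these, 6 were called after averaging, HRG with the higher value (4.77% of all probes) and C2, C3, C8A, C8B and PROZ with the lower (6.21%). Complement genes made up 9 of the 16, and the 8 include F9, which was above background on no control or DSF array. The change after 5-FU differed for 17 genes, 13 higher in Huh7 (18.8% of all probes) and 4 lower (17.9%), of which HRG, F11, F13B and PROC were also called higher (6.07% of all probes) and FGA lower (5.23%) after averaging.

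**Figure D5:**
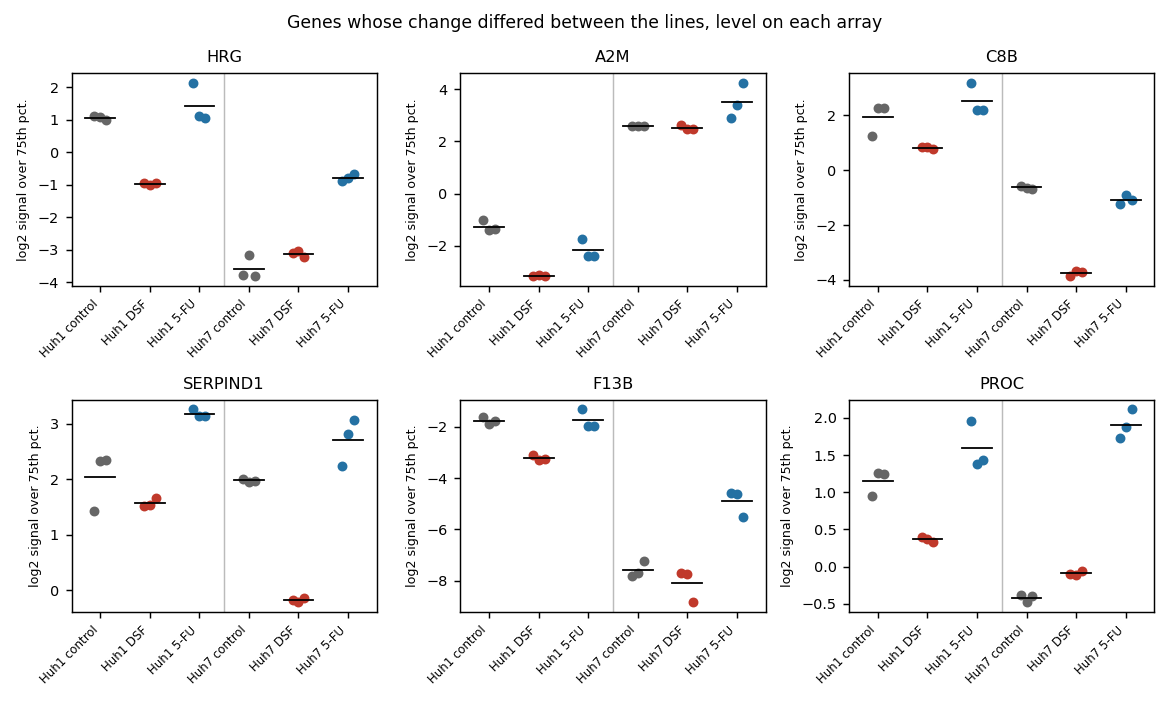
Level of HRG, A2M, C8B, SERPIND1, F13B and PROC on each array (points, log2 signal over the array's 75th percentile) in the 6 groups, with the group mean as a black line. HRG and A2M fall after DSF in Huh1 and overlap the controls in Huh7, C8B and SERPIND1 have larger falls in Huh7, and HRG, F13B and PROC rise after 5-FU in Huh7.

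The untreated lines differed in most of these genes. All Huh1 controls lay on 1 slide and all Huh7 controls on another, so line and slide cannot be told apart here. Huh7 controls were lower than Huh1 controls for 29 genes and higher for 12, where 36.3% of all probes were called lower and 34.6% higher, and after averaging for 22 and 10 (26.2% and 26.5% of all probes). With the slide as a fixed block 23 were lower and 9 higher, in a fit where only the Huh1 DSF group lay on both of these slides. F9 was among the genes called lower, although no control array of either line measured it above background. C9 was at 0.08, 0.18 and 0.29 in Huh1 and was not above background in Huh7, at least 71.9-fold lower (adjusted p = 1.36e-09). F13B was at least 18.6-fold lower in Huh7 (adjusted p = 2.66e-10). HRG (-4.65 ± 0.23), ITIH1 (-4.77 ± 0.33), ITIH4 (-4.61 ± 0.33) and C8G (-3.87 ± 0.10) were lower in Huh7 as well. A2M was 14.5-fold higher in Huh7 (3.85 ± 0.26, adjusted p = 4.31e-09), and SERPINA5 was 6.61-fold higher (2.72 ± 0.16, adjusted p = 7.66e-10). F2 (0.11 ± 0.10) and C8A (0.04 ± 0.10) did not differ detectably.

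Other genes of the 2 systems were counted in the same way. Of 22 further clotting and fibrinolysis genes tested, 11 rose and 4 fell after DSF in Huh1 (50% and 18.2%, beside 24% and 20.4% of all probes). In Huh7 8 rose and 6 fell (36.4% and 27.3%, beside 27.4% and 19.4% of all probes). Median changes were 0.55 and 0.13. TFPI2, a protease inhibitor of the matrix, had the largest rise in both lines (3.05 ± 0.29, adjusted p = 1.31e-06 in Huh1, where 1 of 3 control arrays was above background, and 1.58 ± 0.29, adjusted p = 4.61e-04 in Huh7). The largest falls were those of F2R, the thrombin receptor, in Huh1 (-1.01 ± 0.08, adjusted p = 1.99e-07) and of FGL1, a fibrinogen-like liver protein, in Huh7 (-1.91 ± 0.24, adjusted p = 1.93e-05). After 5-FU 11 of these genes rose in each line (50%, beside 22.3% of all probes in Huh1 and 27.4% in Huh7). There were 3 falls in Huh1 and 4 in Huh7 (13.6% and 18.2%, beside 26% and 29.8% of all probes). PLAUR, the urokinase receptor, rose most in Huh1 (1.51 ± 0.20, adjusted p = 2.44e-05) and TFPI2 most in Huh7 (3.54 ± 0.29, adjusted p = 1.22e-07). GGCX, the enzyme of vitamin K dependent carboxylation, fell most in Huh1 (-0.80 ± 0.06, adjusted p = 2.39e-07), a change smaller than the spike-in difference, and VKORC1, which recycles vitamin K, fell in Huh7 (-1.0 ± 0.10, adjusted p = 9.77e-07), by about the size of the spike-in difference there. F8 had a like value in Huh7 at background.

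Of 20 further complement genes tested, 6 rose and 10 fell after DSF in each line (30% and 50%). Rises made up 24% of all probes in Huh1 and 27.4% in Huh7, and falls 20.4% and 19.4%. Median changes of these complement genes were -0.25 and -0.36. Properdin, encoded by CFP, rose most in Huh1 (2.55 ± 0.16, adjusted p = 2.23e-08), and the C5a receptor C5AR1 most in Huh7, from below background to at least 2.25-fold (adjusted p = 3.98e-04). CFHR5 fell most in Huh1 (-1.75 ± 0.31, adjusted p = 3.35e-04). CFHR5 belongs to a family of closely similar genes, so its probe may share targets with its relatives. After 5-FU 4 of these genes rose and 8 fell in Huh1 (20% and 40%, beside 22.3% and 26% of all probes). In Huh7 4 rose and 5 fell (20% and 25%, beside 27.4% and 29.8% of all probes), no more than among all probes. The largest rises were those of COLEC11, a lectin of the complement system, in Huh1 (1.66 ± 0.21, adjusted p = 1.58e-05) and CD59, which blocks the pore, in Huh7 (1.31 ± 0.13, adjusted p = 6.77e-07), and the largest falls those of CFHR5 in Huh1 (-2.36 ± 0.31, adjusted p = 2.48e-05) and of C1RL, a relative of C1R, in Huh7 (-1.81 ± 0.11, adjusted p = 7.95e-09).

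Of the liver cancer cell markers 7 of 8 fell after DSF in Huh1 (87.5%, beside 20.4% of all probes). In Huh7 3 fell and 2 rose (37.5% and 25%, beside 19.4% and 27.4% of all probes). EPCAM was among those that fell in both lines (-0.66 ± 0.17 and -0.50 ± 0.17). After 5-FU 2 of the 8 rose and 3 fell in Huh1 (25% and 37.5%, beside 22.3% and 26% of all probes). In Huh7 5 rose and 2 fell after 5-FU (62.5% and 25%, beside 27.4% and 29.8% of all probes). Markers of other cells were present in part, and some lay above the array's 75th percentile. Of the fibroblast markers COL3A1 was above background on no array, whereas LUM was at 0.52, -0.07 and -0.08 in Huh1 controls, and at -1.21, -1.27 and -1.20 in Huh7 controls and 1.57, 1.47 and 1.44 after 5-FU (2.72 ± 0.17, adjusted p = 9.09e-09). Of the 5 fibroblast markers 2 were tested, and 1, LUM, was above background on all arrays of each group. A sum over the list is therefore no measure of all 5 genes. The summed level of the 5 fibroblast markers, with 1 unit the 75th percentile, was 0.50 to 0.527 in Huh7 controls and 2.89 to 3.09 after 5-FU, against 0.971 to 1.51 and 1.39 to 2.21 in Huh1. KDR and TEK of 5 endothelial markers were above background on no array, and the list's sum went from 0.258 to 0.281 in Huh7 controls to 0.427 to 0.496 after 5-FU, and was 0.514 to 0.631 and 0.366 to 0.60 in Huh1. Of the 3 endothelial markers tested, 1 was called higher and 1 lower after 5-FU in Huh7. Of the 4 blood cell markers tested, 1 was called higher and 2 lower there, so the sums do not show a rise of every marker. The sum of the 5 blood cell markers measured went from 1.29 to 1.33 in Huh7 controls to 2.43 to 3.84 after 5-FU, and from 2.61 to 4.61 to 4.69 to 4.93 in Huh1. Of these CD68, a macrophage marker, was at 2.06, 1.22 and 1.11 in Huh1 controls and 2.14, 2.13 and 2.15 after 5-FU, and at 0.05, 0.10 and 0.03 and 1.21, 1.88 and 1.88 in Huh7. Their part in the 5-FU results was not tested.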

How the data were processed

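The 18 arrays cover 2 lines with 3 groups of 3. The authors deposited spot intensity values from Agilent Feature Extraction 10.7.1.1 (submitters' processing notes), and a table of signal normalized in GeneSpring, used as an alternative. Here spots without an outlier flag were averaged per probe as log2 intensity, and the array's log2 75th percentile (10.1 to 10.8) was subtracted. Per array 59.2% to 70.4% of 42405 probes lay well above background, 78 probes without an unflagged spot were left out and no spot was saturated. The 29760 probes above background throughout some group entered limma 3.58.1 (R 4.3.3), with 6 groups in 1 fit and Benjamini-Hochberg adjustment, and the script was tested on simulated data.

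Where no array of a group was above background, a bound was set against the higher of the array's lowest signal above background and the probe's own. Of 27134 RefSeq probes 25771 were named. Values on every array are given for genes called in both lines without overlap (up to 12 per drug), for the 8 largest called line differences per drug and for fibrinogen, and values of F2, F5, SERPINC1 after 5-FU, C3 and a few others were chosen after they were seen. The genes and lists were chosen with earlier results of these data known. The normexp alternative used the median spot signal. Same-numbered arrays did not deviate together (correlation -0.09 to 0.03). Other alternatives changed the scaling, filter, probe rule, slide terms and arrays. Averaging near-identical arrays and keeping Huh1 arrays of 1 slide were added after seeing the data. A result on a further complement gene is not reported here.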

Additional observations from a re-analysis of the deposited data

Results flagged for a closer look

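For 8 genes per drug the change was taken in Huh7 minus that in Huh1, and limma called the difference itself on 18 arrays. After DSF the differences were 2.5 for HRG, -2.35 for PROZ, -2.08 for PLG, -2.02 for C8B, -1.86 for ITIH3, 1.80 for A2M, -1.69 for SERPIND1 and -1.65 for CFB. With near-identical arrays averaged, those of HRG, PROZ and C8B were still called (adjusted p = 0.0123, 0.0188 and 0.0483), and those of PLG, ITIH3, A2M, SERPIND1 and CFB were not (adjusted p = 0.0945, 0.133, 0.0939, 0.0526 and 0.119). With normexp background correction the values of PLG and ITIH3, both close to background in Huh7 after DSF, were -0.63 and -0.40 and were not called. PROZ was not above background in Huh1 controls, so its difference rests on the Huh7 arrays.

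After 5-FU the differences were 2.66 for F13B, 2.43 for HRG, 2.14 for F11, 1.96 for ITIH3, 1.89 for PROC, 1.83 for A2M, 1.50 for KNG1 and -1.44 for ITIH4. After averaging, F13B, HRG, F11 and PROC were still called (adjusted p = 0.0207, 0.0147, 0.0136 and 0.0118), and ITIH3, A2M, KNG1 and ITIH4 were not (adjusted p = 0.13, 0.102, 0.303 and 0.182). With normexp, F13B, below background in Huh7 controls, had a difference of 0.26 that was not called. A2M rose in Huh7 and fell in Huh1 without overlap, and its Huh1 fall was -0.07 on the spike-in scale.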

How the results depend on the processing

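Genes called higher (h) or lower (l) are given as counts of the 46. Averaging near-identical arrays gave 0 h and 14 l after DSF in Huh1, 0 h and 16 l in Huh7, 0 l after 5-FU in each line, 1 h and 5 l for the line difference after DSF and 4 h and 1 l after 5-FU. Spike-in scaling gave 41 h and 0 l after 5-FU in Huh1, 42 h and 0 l in Huh7 (beside 22385 and 22717 of all 29760 probes called higher), 0 h for DSF against 5-FU in Huh7, 5 h for the line difference after DSF and 2 l after 5-FU. Median scaling gave 0 h after DSF in Huh1, 2 l after 5-FU in Huh7, and turned the median line difference after DSF from -0.13 to 0.022. With only the groups compared in the fit there were 2 h after DSF in Huh1, 4 h in Huh7, 1 l after 5-FU in Huh1 and 2 l for the line difference after 5-FU. DSF in Huh7 gave 2 h with probes above background on all 18 arrays and 2 h with the mean of a gene's probes. Normexp gave 1 h for DSF against 5-FU in Huh1 and 2 h in Huh7, and a median of 0.46 instead of 0.83 after 5-FU in Huh7. DSF against 5-FU in Huh7 gave 0 h with the slide as a fixed block and without the Huh7 DSF arrays on their own slide. In all of these the cause was not tested.

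Leaving out 1 array gave 1 to 2 h after DSF in Huh1 (2 without Huh1 control 1) and 1 to 2 h in Huh7 (2 without Huh7 control 2). After 5-FU it gave 2 to 7 l in Huh1 (2 without 5-FU 2 or 3, 7 without control 1) and 1 to 3 l in Huh7 (1 without 5-FU 3, 2 without control 2). It gave 0 to 1 h for DSF against 5-FU in Huh1 (1 without 5-FU 1), and for the line difference after 5-FU 12 to 20 h (20 without Huh1 5-FU 1) and 2 to 6 l (2 without Huh7 control 2 or Huh7 5-FU 1). Array numbers do not pair the arrays. With the replicate block 26 genes were lower after DSF in Huh1, 27 in Huh7, and 14 and 25 higher after 5-FU. Of the named changes, the block ended the calls of FGA after DSF in Huh7 (adjusted p = 0.0506) and ITIH2 after 5-FU in Huh1 (adjusted p = 0.0505). Other counts stayed within 1.5 times those of the 18 arrays. Signal near background limits F9, F13B, KLKB1, PROZ, PLG, MASP2, C9, ITIH1 and ITIH3.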
